A study of Rattus norvegicus with 23 samples.

Results

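RNA-seq read counts per gene from 6 libraries of repaired rat median nerve were compared: 3 labelled MIV and 3 labelled EV, all collected 3 days after repair, out of 23 libraries in the series. The members were chosen by their labels alone. In adult female rats, the median nerve had been severed and an 8 mm gap left between its stumps. For the MIV libraries the label names repair of the cut together with MIV, which the series describes as a muscle-in-vein graft of 10 mm. For the EV libraries the label names repair of the cut alone, and the letters EV are not spelled out. Both groups are labelled wild type. The tissue is given as median nerve, and the labels do not say whether graft material was part of the sample, nor whether each library is from its own animal. All p-values therefore rest on the spread among these libraries, which may be technical. Untreated adductor muscle (n = 3), median nerve (n = 5) and epigastric vein (n = 3) were used mainly to say which healthy tissue carried a gene. They also entered an alternative fit over all 23 libraries, and a few levels are set beside theirs.

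To make a muscle-in-vein graft, a length of vein is packed with skeletal muscle and sewn between the nerve stumps. The vein acts as a tube, and the muscle keeps the tube open and offers a scaffold to regrowing axons and migrating Schwann cells. Muscle fibres cut off from their nerve and blood supply degenerate, and their satellite cells, the stem cells of muscle, can start to rebuild fibres. Soon after a nerve is cut, macrophages enter, and Schwann cells lose their myelin programme and take up a repair state. The question addressed here is how MIV and EV libraries differed at an early stage of regeneration. Since EV is not spelled out, a difference cannot be ascribed to the muscle alone. The rows of the count table carry Ensembl identifiers, none of which matched a gene symbol in the annotation used here. Genes are therefore described by the healthy tissue that carried them, and only 4 are given by identifier.

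Library totals ran from 15106525 to 17267954 counts in MIV and from 12504035 to 14795619 in EV, so every MIV library was deeper than every EV library. Across genes, MIV replicate 1 had a mean Pearson correlation of 0.949 with the other MIV libraries, and MIV replicates 2 and 3 correlated at 0.976 with each other. In EV, replicates 1 to 3 had means of 0.948, 0.960 and 0.948 with their own group, so this value did not set MIV replicate 1 apart. On the first principal component of log2 CPM (counts scaled to library size), which held 47.4% of the variance, MIV replicate 1 stood at -76.4, replicates 2 and 3 at -24.1 and -20.9, and the EV libraries at 31.3 to 50.3. On the second component (23.5%), EV replicate 3 stood at 60.3, EV replicate 1 at -39.9 and the other libraries from -21.0 to 12.8. MIV replicate 1 stood apart on the first component. The main values in which it was far above the other MIV libraries are also given without it, an alternative chosen after seeing the data.

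No gene passed at an adjusted p under 0.05 (edgeR's quasi-likelihood test with Benjamini-Hochberg adjustment, 0 of 14068 genes tested). The smallest adjusted p was 0.0538, and the 5 genes with an adjusted p under 0.1 were all higher in MIV. At an unadjusted p under 0.05, 667 genes (4.74%) lay higher in MIV and 219 (1.56%) lower, 6.3% together. The lower count was unstable: it was 141 without MIV replicate 3, 413 without EV replicate 3, 403 over all 23 libraries and 495 with voom. Fitted on the 12 repaired libraries of both days, edgeR again called 0. DESeq2 called 367 of the 16803 genes to which it gave an adjusted p, 346 higher (2.06%) and 21 lower (0.125%), and limma's voom with sample weights called 4, all of them higher (0.0284%), and 0 lower (0%). Of the DESeq2 calls, 180 (49.05%) were muscle-enriched, 46 (12.5%) nerve-enriched and 19 (5.18%) vein-enriched, terms that are explained below. These classes made up 16.4%, 7.73% and 6.76% of the genes DESeq2 tested. Without MIV replicate 1, edgeR called 16 genes, all higher in MIV, 13 of them muscle-enriched and 2 nerve-enriched, classes that made up 18.5% and 7.31% of the genes tested in the 6 libraries.

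The differences were lopsided in size. At more than 8-fold in the fit (a log2 fold change beyond 3), 208 genes lay higher in MIV and 4 lower, and in 205 and 3 of these the MIV and EV libraries did not overlap. At more than 2-fold the counts were 547 higher and 327 lower. Over all genes tested, every MIV library lay above every EV library for 1006 genes (7.15%) and below for 587 (4.17%). Without MIV replicate 1 the fit placed 156 genes more than 8-fold higher and 8 lower, and 153 of the 156 were among the 208. Of the 208 genes, 137 (65.9%) were muscle-enriched, against 18.5% of genes tested. A further 18 (8.65%) were nerve-enriched, near the 7.31% of genes tested, and 7 (3.37%) vein-enriched, under the 7.07% of genes tested. The others were 21 carried by some healthy tissue without enrichment and 25 carried by none. The 208 summed to 20522, 4831 and 3786.5 CPM in MIV replicates 1 to 3, against 347, 506 and 186 CPM in EV replicates 1 to 3. The mean sums differed 28.05-fold, and 12.4-fold without MIV replicate 1. MIV replicate 1 was the highest MIV library for 199 of them, by a median of 4.47 times the mean of the other two. These genes were picked by the size of this same difference, so their levels are a description. Of all genes tested, 509 passed the filter on low counts through MIV alone and 296 through EV alone. Among muscle-enriched genes these numbers were 159 and 9. A gene that passed through 1 group alone had every library of that group at or above the cut-off. At least 1 library of the other group lay below it. Such a gene could hardly show the opposite order without overlap, so the counts and shares at this size are also a description.

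The 4 genes given by identifier were picked by smallest p in each direction. They were taken only from genes without overlap whose mean in the higher group was at least 10 CPM. Their lack of overlap therefore comes from the rule, and their values are a description. ENSRNOG00000008536 was carried by healthy muscle at 44.8 CPM ± 30.0 (SD, n = 3) and was listed with 0 counts in all 5 healthy nerve libraries, which allows up to 0.0320 CPM. It had 21642, 5606 and 3528 counts in MIV and 1, 1 and 0 in EV. The MIV libraries averaged 614 CPM ± 569 and the EV libraries 0.0514 CPM ± 0.0446 (SD, n = 3 each), with MIV replicate 1 at 4.37 times the mean of the other MIV libraries. The pooled level was 12528 times higher in MIV, with an exact 95% interval of 3468 to 103449 that covers counting error only. Without MIV replicate 1 the MIV mean was 289 CPM and the pooled ratio 5677 (1571 to 46882). The adjusted p was 0.0554 with edgeR, and it ranged from 2.36e-18 (DESeq2) to 0.277 over the alternatives.

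ENSRNOG00000031890 was nerve-enriched, at 38.3 CPM ± 7.34 (SD, n = 5) in healthy nerve and 5.51 and 5.998 CPM in healthy muscle and vein. Its levels were 246, 195 and 161 CPM in MIV and 42.4, 44.6 and 30.6 CPM in EV. The lowest MIV library held 161 CPM and the highest EV library 44.6 CPM (log2 fold change 2.36 ± 0.22 SE, edgeR adjusted p = 0.0554, from 3.37e-17 with DESeq2 to 0.230 over the alternatives).

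ENSRNOG00000019848 was present in all 3 healthy tissues, at 50.9, 38.2 and 44.1 CPM in muscle, nerve and vein. It stood at 9.97, 18.2 and 10.6 CPM in MIV and 94.8, 130.0 and 49.8 CPM in EV. The lowest EV library held more than the highest MIV library (log2 fold change -2.83 ± 0.41 SE, edgeR adjusted p = 0.117, from 3.63e-10 with DESeq2 to 0.345 over the alternatives). ENSRNOG00000060550, also present in all healthy tissues, differed less, with 42.2, 49.1 and 44.6 CPM in MIV and 86.9, 68.6 and 76.3 CPM in EV. The highest MIV library held 49.1 CPM and the lowest EV library 68.6 CPM (log2 fold change -0.77 ± 0.14 SE, edgeR adjusted p = 0.139, from 0.00195 with DESeq2 to 0.459 over the alternatives). Neither gene passed the edgeR test on the 6 libraries, and no other gene did. With edgeR over all 23 libraries the adjusted p was 0.0122 for ENSRNOG00000060550 and 0.218 for ENSRNOG00000019848.

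**Figure D1:**
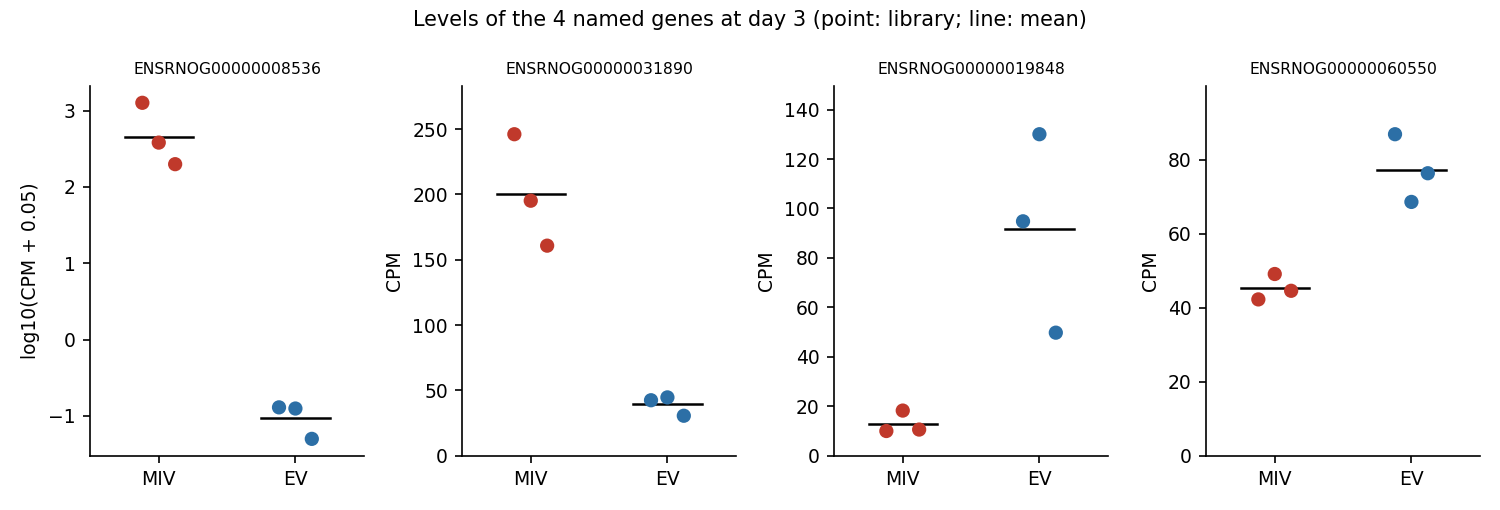
Level of 4 genes in each day 3 library, with the 3 MIV libraries left of the 3 EV libraries and a line at each group's mean. The y axis is CPM from 0, except for ENSRNOG00000008536, where it is log10(CPM + 0.05) and the line is the mean of those log values; in all 4 panels the groups do not overlap.

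To describe the rest, genes enriched in a healthy tissue were found with edgeR on the 11 healthy libraries. None of these enters the main MIV and EV comparison. A gene was called enriched when its level exceeded that in each of the other 2 healthy tissues by more than 1 in log2. The adjusted p had to be under 0.05 in each. This gave 2848 muscle-enriched genes, of which 2599 passed the filter on low counts at day 3, 1531 nerve-enriched (1029 passed) and 1176 vein-enriched (995 passed). Their median log2 fold changes in MIV over EV were 0.04, 0.00102 and -0.25, against -0.03 over all genes tested. In bulk tissue, fewer cells of a type and less RNA per cell cannot be told apart.

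**Figure D2:**
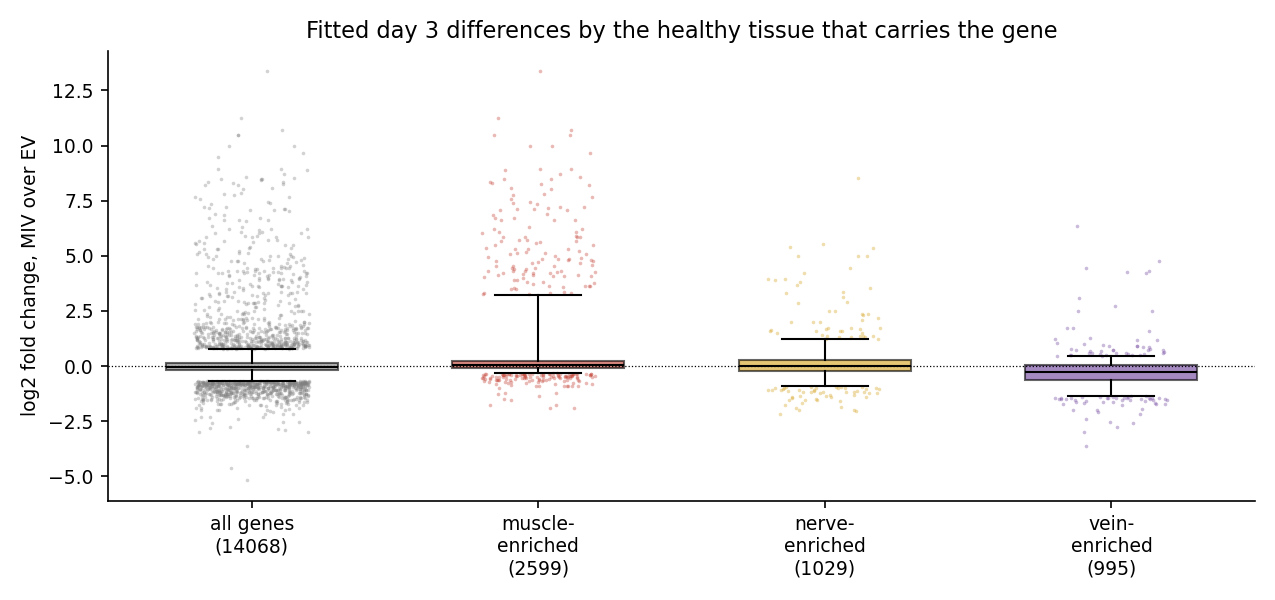
Fitted log2 fold change of MIV over EV at day 3 (y axis) for all genes tested and for muscle-, nerve- and vein-enriched genes, with the number of genes below each. Boxes show quartiles and medians, whiskers the 5th and 95th percentiles, and points the genes beyond them; the muscle group has a long upper tail around a median of 0.04, and the vein group is shifted to a median of -0.25.

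Muscle-enriched genes as a whole took similar shares of the counts in the 2 groups. The shares were 22.01%, 18.6% and 18.8% in MIV and 18.1%, 18.2% and 20.3% in EV, so the groups overlapped. The mean difference was 0.97 percentage points, and it was -0.14 without MIV replicate 1. The 3 most abundant of the group in these libraries had 35356 to 82613 CPM in healthy muscle but also 4879 to 10491 in healthy nerve. The first of them stood at 13442, 12626 and 11716 CPM in MIV and 14163, 11765 and 17355 CPM in EV (log2 fold change -0.20 ± 0.22 SE), and the groups overlapped.

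The values differed with how exclusive to muscle a gene was. The 2848 genes were split by their log2 excess over whichever of nerve and vein was closer. The 2073 genes with an excess of 1 to 3 summed to 162100, 150872 and 144914 CPM in MIV and 151001, 148715 and 170612 CPM in EV. At an excess of 3 to 5 (436 genes) the sums were 40326, 33286 and 31585 CPM in MIV and 25891, 28728 and 32099 CPM in EV. The groups overlapped in both.

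At an excess of 5 to 8 (162 genes) the sums were 8211, 4494 and 3864 CPM in MIV and 2251, 3103 and 3992 CPM in EV, which still overlapped through EV replicate 3. The mean sums differed 1.77-fold, and 1.34-fold without MIV replicate 1. The 177 genes with an excess above 8 summed to 11083, 2206 and 1518 CPM in MIV and 91.7, 173 and 95.2 CPM in EV. Here every MIV library exceeded every EV library, and the mean sums differed 41.2-fold. Without MIV replicate 1 the ratio was 15.6.

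**Figure D3:**
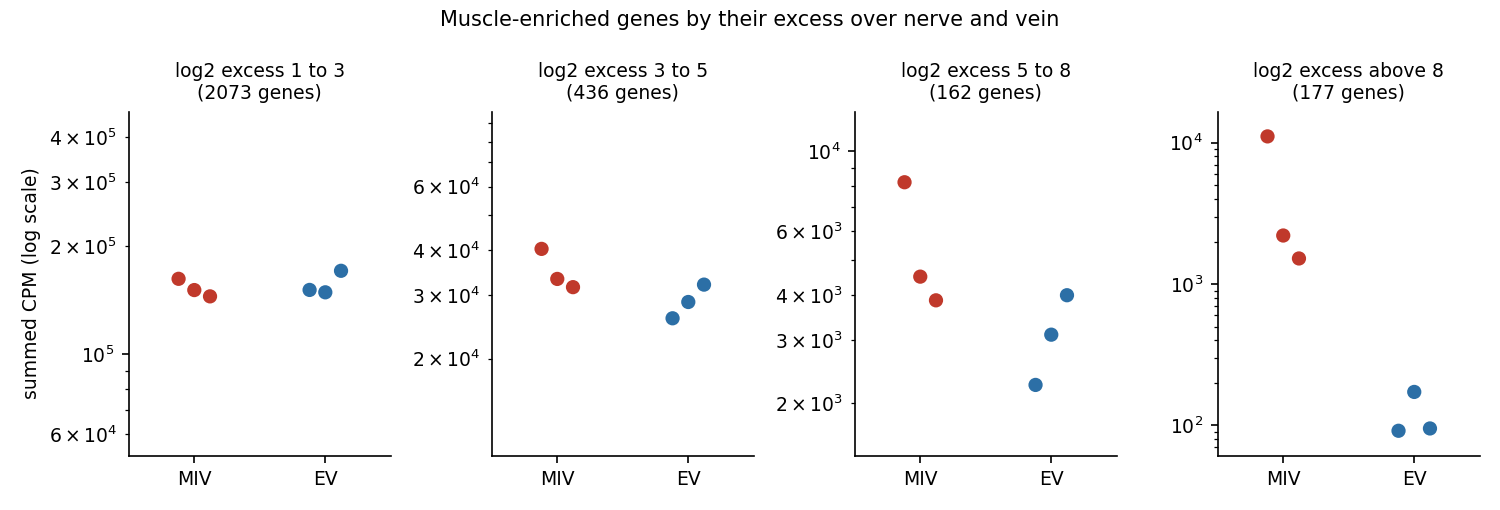
Summed level of the muscle-enriched genes in each library (CPM, log scale), split by log2 excess over nerve and vein, with MIV left of EV in each panel. MIV and EV overlap in the first 3 panels and are far apart in the last, where MIV runs from 1518 to 11083 CPM and EV from 91.7 to 173 CPM.

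Gene by gene, every MIV library lay above every EV library for 155 of 2013 tested genes (7.70%) at an excess of 1 to 3, for 72 of 376 (19.1%) at 3 to 5, for 49 of 112 (43.8%) at 5 to 8 and for 85 of 98 (86.7%) above 8, against the 7.15% of all genes tested. The median log2 fold changes were 0.01, 0.12, 0.73 and 5.29, and the last was 5.23 with genes that had no EV count set at a bound of 3 counts over the EV group. The filter itself shaped part of these shares. A gene that passed it through MIV alone had every MIV library at or above its cut-off and at least 1 EV library below. That held for 30 of 2013, 30 of 376, 27 of 112 and 72 of 98 genes in the 4 classes, and only 98 of the 177 genes in the last class passed at all. The shares from an excess of 3 upwards are therefore a description and cannot be read as support; the summed levels above count every gene of a class. The opposite order, with every MIV library below, was met by 52 (2.58%), 7 (1.86%), 0 (0%) and 1 gene (1.02%), against 4.17% of all genes tested. The filter bears on these shares too.

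**Figure D4:**
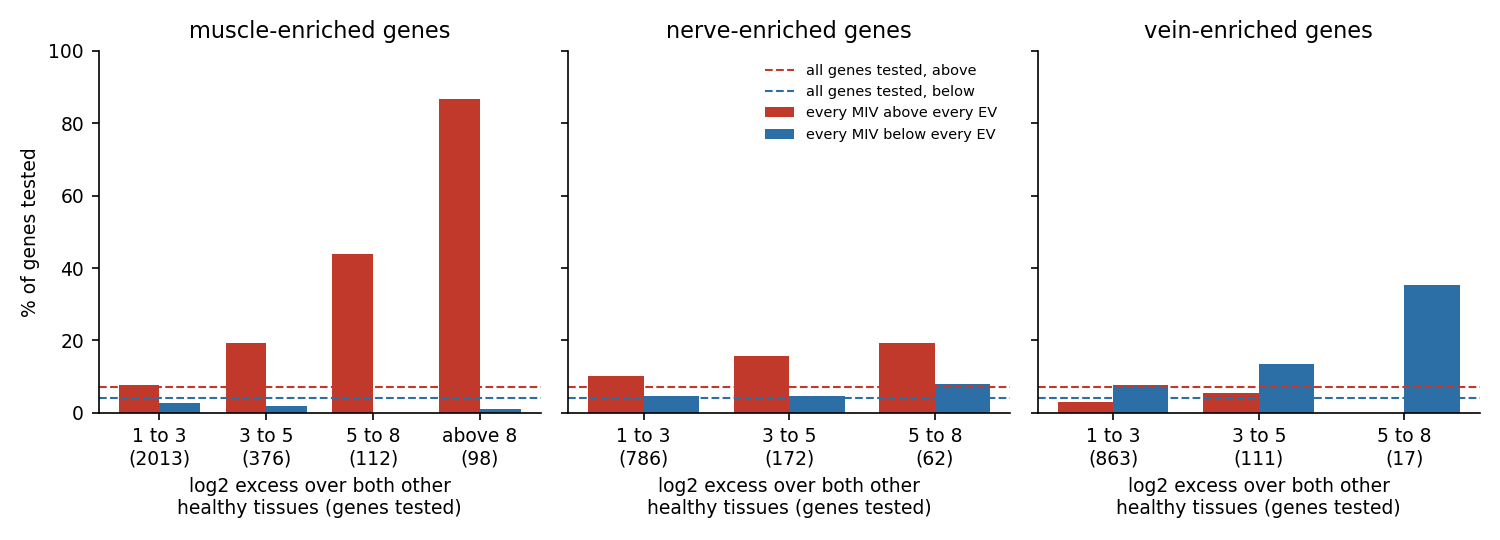
Share of tested genes (y axis, percent) whose MIV libraries all lie above or all below the EV libraries, by enriched tissue and log2 excess, with the number of genes in brackets and dashed lines at the shares over all genes tested (7.15% and 4.17%). The muscle shares above run from 7.70% to 86.7% and the vein shares below from 7.65% to 35.3% (6 of 17 genes), but 72 of 98 genes in the last muscle class passed the filter through MIV alone and 5 of 17 in the last vein class through EV alone; classes with fewer than 10 tested genes are left out.

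The check of the labels used genes that define a tissue by level: at least 100 CPM in it and under 1 CPM in both others. Of 87 such muscle genes, 74, 57 and 48 reached 1 CPM in the MIV libraries, against 13, 22 and 10 in the EV libraries. Their summed level was 3135, 618 and 493 CPM in MIV and 42.1, 85.4 and 44.1 CPM in EV. The median gene of the 87 stood at 11.8, 1.63 and 1.29 CPM in MIV and 0.159, 0.225 and 0.0690 CPM in EV. No count was seen for 1, 7 and 9 of the 87 in MIV and for 34, 22 and 38 in EV, so most of the 87 had at least 1 count in each library of either label. The 11 genes that defined healthy nerve summed to 22.98, 23.7 and 14.7 CPM in MIV and 27.5, 29.4 and 24.4 CPM in EV, so all MIV libraries were lower, and both groups lay far below the level of at least 100 CPM per gene by which those genes had been chosen. No vein gene met the rule.

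At the extreme, 13 genes had at least 5 CPM in every MIV library and under 0.5 CPM in every EV library (0.0924% of genes tested), and no gene showed the reverse (0%). Of the 13, 12 were muscle-enriched, against 18.5% of genes tested, with levels in healthy muscle from 4.24 to 37794.5 CPM. The limits took only genes near absent from EV, so this makeup is a description. Summed over the 13, there were 59104 counts in the MIV libraries and 63 in the EV libraries, none of the genes having more than 6 counts in an EV library. A gene at 37794.5 CPM in healthy muscle had 3791, 177 and 169 counts in MIV and 0, 1 and 0 in EV. Another had only 4.24 CPM in healthy muscle and none in nerve or vein, yet 179, 122 and 186 counts in MIV and 0, 1 and 0 in EV. It had the smallest adjusted p of all genes (edgeR, 0.0538) and was the only one of the 13 in which MIV replicate 1 was not the highest.

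**Figure D5:**
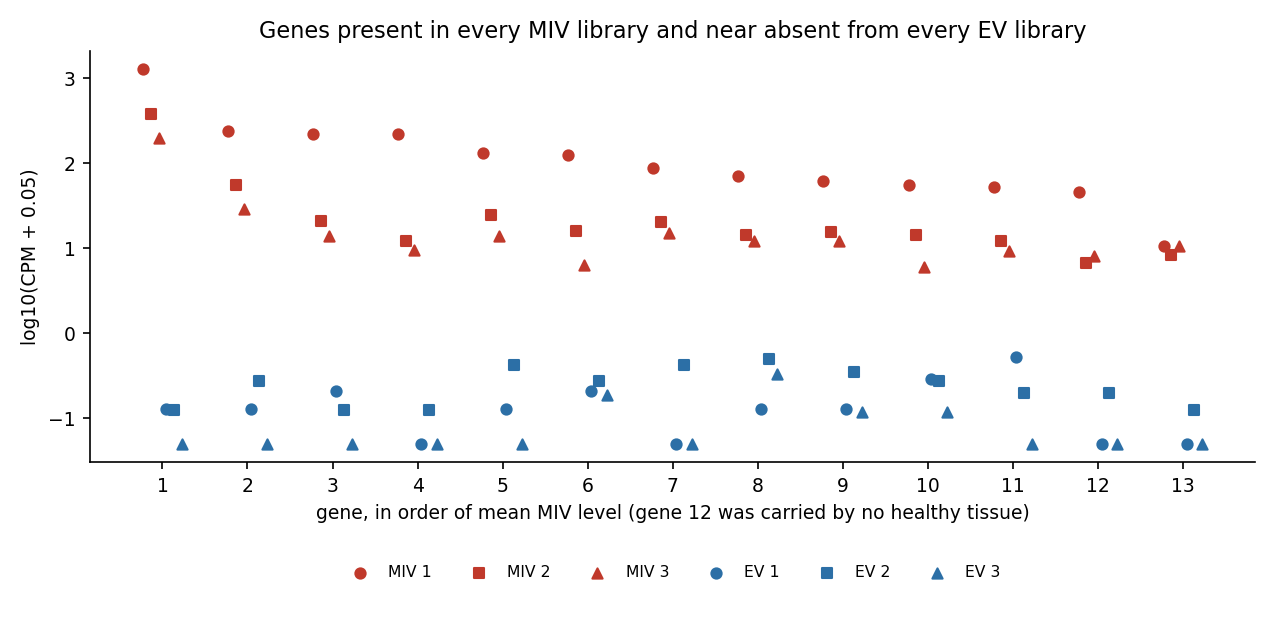
Level of the 13 genes in each library as log10(CPM + 0.05), numbered by their mean MIV level, with MIV libraries in red and EV libraries in blue and marker shape giving the replicate. The MIV levels run from 5.96 to 1262 CPM and the EV levels stay under 0.5 CPM; MIV replicate 1 is the highest for 12 of the 13.

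The remaining gene of the 13 was carried by no healthy tissue at 1 CPM, with 0.0402 CPM in muscle. It had 776, 97 and 143 counts in MIV and 0, 2 and 0 in EV. It belonged to the 25 genes more than 8-fold higher in MIV that no healthy tissue carried and that were enriched in none. Their summed level was 383, 128 and 113 CPM in MIV and 4.998, 13.3 and 3.93 CPM in EV, and 21 of them were under 1 CPM in every EV library. No healthy tissue carried 905 of the tested genes, 888 of them enriched in none. Of the 905, 81 (8.95%) had every MIV library above every EV library and 39 (4.31%) below, against 7.15% and 4.17% over all genes. At an unadjusted p under 0.05 (edgeR), 69 (7.62%) lay higher in MIV and 11 (1.22%) lower, against 4.74% and 1.56%. Of the 905, 134 passed the filter on low counts through MIV alone and 99 through EV alone.

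Nerve-enriched genes held 6.49%, 6.95% and 6.81% of the counts in MIV and 5.94%, 6.10% and 5.79% in EV, so that every MIV library lay above every EV library. Much of the gap came from 1 gene, at 1030 CPM in healthy nerve and 1.91 and 0.317 CPM in healthy muscle and vein. It reached 6520, 10898 and 7613 CPM in MIV and 1259, 4634 and 1910 CPM in EV (log2 fold change 1.68 ± 0.50 SE, edgeR adjusted p = 0.416, from 0.00981 with DESeq2 to 0.754 over the alternatives). Its level in each of the 6 libraries was above its mean in healthy nerve, though the healthy libraries were scaled separately. Its groups did not overlap. Without it the shares were 5.84%, 5.88% and 6.02% in MIV and 5.81%, 5.63% and 5.60% in EV, again without overlap but with a gap of a few hundredths of a percentage point at its narrowest.

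Of the 1029 nerve-enriched genes tested, 120 (11.7%) had every MIV library above every EV library and 52 (5.05%) every one below, against 7.15% and 4.17% of all genes tested. The filter was passed through MIV alone by 53 of the 1029 and through EV alone by 43, and the median log2 fold change was 0.00102. The 18 nerve-enriched genes that were more than 8-fold higher in MIV made up 1.75% of those tested, near the 1.48% of all genes, and summed to 756, 263 and 207 CPM in MIV and 15.5, 26.2 and 10.0 CPM in EV. MIV replicate 1 was the highest MIV library for 16 of them, as it was for 134 of the 137 muscle-enriched genes of that size.

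The most abundant of the 18 stood at 22.3 CPM in healthy nerve and 3.70 CPM in healthy muscle. It had 341, 118 and 53.0 CPM in MIV and 5.32, 5.54 and 1.79 CPM in EV (edgeR adjusted p = 0.131). One that healthy muscle and vein scarcely carried, at 4.15 CPM in nerve and 0.0402 CPM in muscle, had 153, 73 and 112 counts in MIV and 2, 3 and 1 in EV (edgeR adjusted p = 0.0554). Another, at 206 CPM in healthy nerve, had 129, 41 and 40 counts in MIV and 4, 1 and 0 in EV.

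Vein-enriched genes leaned the other way. Their median log2 fold change was -0.25, and 115 of 995 (11.6%) lay more than 2-fold lower in MIV, against 2.32% of all genes tested. Every MIV library lay below every EV library for 87 of them (8.74%, against 4.17% of all genes) and above for 31 (3.12%, against 7.15%). Of the 995, 54 passed the filter on low counts through EV alone and 29 through MIV alone, so these counts and shares are a description. The medians were -0.22 at an excess of 1 to 3, -0.57 at 3 to 5 and -1.18 at 5 to 8, where only 17 genes were tested and 5 of them had passed the filter through EV alone. At 3 to 5, 14 of the 111 genes tested had passed it through EV alone and 9 through MIV alone. The share of counts was 5.40%, 6.55% and 6.38% in MIV and 7.58%, 6.73% and 5.85% in EV, with overlap. Without EV replicate 1, which held the highest share, the median of the group was -0.08. DESeq2 called 12 vein-enriched genes higher in MIV (1.06% of those it tested, against 2.06% of all genes) and 7 lower (0.616%, against 0.125%). The 7 vein-enriched genes that were more than 8-fold higher, 0.704% of those tested against 1.48% of all genes, summed to 841, 270.4 and 189 CPM in MIV and 6.27, 17.2 and 3.11 CPM in EV, with MIV replicate 1 the highest MIV library for all 7.

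Large differences towards EV were few. At more than 4-fold, every MIV library lay above every EV library for 259 genes (1.84% of genes tested). For only 7 genes (0.0498%) did every MIV library lie below every EV library at that size. The one with the largest fitted difference rested on EV replicate 3, with 10, 10 and 4 counts in MIV and 11, 11 and 758 in EV. Another, carried by healthy nerve at 1.201 CPM, had 2, 1 and 2 counts in MIV and 58, 34 and 14 in EV (edgeR adjusted p = 0.131). A vein-enriched gene, at 16.0 CPM in healthy vein, had 1, 5 and 5 counts in MIV and 12, 24 and 20 in EV. Of the 7, 2 were vein-enriched and 1 nerve-enriched, classes that made up 7.07% and 7.31% of genes tested. ENSRNOG00000019848, described above, was also among the 7, with 171, 269 and 188 counts in MIV and 1195, 1737 and 721 in EV.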

How the data were processed

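Poly-A RNA from 350 ng of total RNA was made into non-directional libraries, per the labels' protocols, so reads of a gene and of one antisense to it are not separable. CASAVA and HISAT2 are named in the submitters' processing notes. The counting tool, genome build and handling of reads shared by paralogs, whose counts are therefore uncertain, were not given in the sources used here. The authors deposited raw counts per gene for 23 libraries. All 23 columns matched a title. None of the 32545 identifiers matched the GRCr8 gene table (47357 rows, 0 with an Ensembl identifier), so 0 of 23 lists set by symbol could be measured and no sequence is printed.

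Counts of the 6 day 3 libraries were tested in R 4.3.3 with edgeR 4.0.16 (filterByExpr, minimum count 10 and total 15, TMM, robust quasi-likelihood, threshold 0.05; biological coefficient of variation 30.6%). DESeq2 1.42.0 and limma 3.58.1 gave alternatives. Only the 6 libraries entered, a choice made knowing that day 7 MIV libraries vary more and that a fit over 12 libraries called 0 genes. Tests were checked on simulated data. CPM use TMM-scaled library sizes, with the healthy and the day 3 libraries scaled separately. A count of 0 in 1 library allows up to 0.169 to 0.238 CPM (3 counts). This and all intervals cover counting error only.

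Named genes were the 2 per direction with the smallest p, no overlap and 10 CPM or more on average in whichever group was higher. The rule asked for symbols and allows 2 identifiers per direction where none match. The 5 and 0.5 CPM limits, the excess classes, the 100 CPM rule and the 8-fold classes were chosen after values had been seen. The groups, lists and tests were chosen with earlier results of these data known.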

Additional observations from a re-analysis of the deposited data

Results flagged for a closer look

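Both genes named as lower in MIV had 1 healthy nerve library far from the other 4. For ENSRNOG00000019848, nerve replicate 3 held 113 CPM and the others 9.18 to 29.3 CPM, and the gap to the nearest library was 0.807 of the whole range. For ENSRNOG00000060550, nerve replicate 4 held 158 CPM and the others 177 to 181 CPM, a gap of 0.812 of the range. The limit used for such gaps is one that about 1 in 20 groups passes by chance. Neither library enters the main comparison of MIV with EV.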

How the results depend on the processing

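The count of 0 calls depended on the method and on 1 library. It was 160 with edgeR over all 23 libraries (154 higher, 6 lower), 367 with DESeq2 (346 higher, 21 lower), 4 with voom, 6 without a filter on low counts, 1 with a minimum count of 50 and 0 with the 12 repaired libraries, RLE factors or TMM factors from genes that are not muscle-enriched. All calls with voom, without the filter and with the minimum count of 50 were higher in MIV. With the replicate number as a block edgeR called 3 genes, all higher and all muscle-enriched. Same-numbered libraries deviated together for number 2 (correlation 0.26) but not for numbers 1 and 3 (-0.13 and -0.00798), so the numbers were not taken to pair the libraries, and 1 of 3 MIV libraries correlated best with the EV library of its own number. Leaving out 1 library gave 0 to 16 calls, all 16 higher, and 0 lower in every case. The median log2 fold change of nerve-enriched genes moved beyond its replicate spread to 0.048 with voom and 0.022 with the non-muscle factors, and ran from -0.00389 to 0.034 when 1 library was left out. With an excess above 2 the medians were 0.11 for muscle and 0.020 for nerve, and with an excess above 3 they were 0.32 for muscle and -0.61 for vein. None of the named genes reversed under any of 15 alternatives. They had been picked for no overlap between the groups in these same libraries, so a reversal was hardly possible. The 13 genes present in MIV and near absent from EV were 37 without EV replicate 2, and 24, 35 and 63 under limits of 1 and 5, 0.5 and 2, and 1 and 2 CPM, chosen after seeing the data. With 1 library fewer, non-overlap is easier to meet, and genes with every MIV library above numbered 1381 to 1845 and below 1096 to 1675. The causes of the other shifts were not tested. Genes under about 0.2 CPM in a library cannot be told from 0 at this depth.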

Other observations

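Genes fell into further classes by the set of healthy tissues that carried them at 1 CPM or more. Those carried by muscle and vein but not by nerve (191 genes) summed to 5822, 1794 and 1549 CPM in MIV and 1539, 904 and 921 CPM in EV. Those carried by muscle and nerve but not by vein (258 genes) summed to 9799, 12818 and 9215 CPM in MIV and 2431, 6112 and 3273 CPM in EV, and the abundant nerve gene described above made up 6520, 10898 and 7613 CPM of the MIV sums. In both classes every MIV library lay above every EV library, by a narrow margin in the first. Genes carried by nerve and vein but not by muscle (873 genes) summed to 7094, 7732 and 7619 CPM in MIV and 7496, 7847 and 8082 CPM in EV, with overlap. The 11492 genes carried by all 3 tissues held 96.1% to 96.9% of the counts in MIV and 97.4% to 97.9% in EV.

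Of all 15 pairs of the 6 libraries, MIV replicate 2 and EV replicate 2 differed least by counts, with a chi-square per degree of freedom of 23.9, against 47.9 or more in every other pair. By Pearson correlation of log2 CPM across genes the order differed: MIV replicate 2 stood at 0.963 with EV replicate 2, 0.976 with MIV replicate 3 and 0.949 with MIV replicate 1.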
